A study of Mus musculus with 4 samples.

Results

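The 32 genes described here carry glucose into cells, break it down to pyruvate, pass pyruvate to lactate or to mitochondria, and run the pentose phosphate branch. They were chosen by name, as genes of these pathways, and all 32 were listed in each of the 4 libraries, out of 30450 gene symbols that every library lists. By role they divide into 1 glucose transporter, 9 genes of upper glycolysis, 6 of lower glycolysis, 4 of lactate, 8 of mitochondrial pyruvate and 4 of the pentose phosphate branch. Single-cell RNA libraries (10X Chromium, in which a unique molecular identifier, UMI, tags each captured transcript) had been made from sorted eYFP-positive endothelial cells of female C57/B6J mice on an Apoe knockout background, and there was 1 library for each of 4 groups. These are EC-Oct4Δ/Δ (Oct4 knockout) aorta, EC-Oct4+/+ (Oct4 wild-type) aorta, EC-Oct4Δ/Δ lung and EC-Oct4+/+ lung. All mice carried the endothelial lineage tracing allele and received a Western diet over 5 weeks. Neither their age nor the promoter of the recombinase is stated in the sources used here. The YFP gate had been set on littermates negative for Cdh5, and 1 µg/mL actinomycin D, a blocker of transcription, was present throughout digestion. The labels give 3 knockout and 2 wild-type mice, whole aortas from arch to abdomen and the left lung lobes, and do not tie cells to mice. With 1 library per group there was no replicate check and no test was made: each interval below is a 95% interval that covers counting error only, and each ratio compares libraries.

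Glycolysis splits glucose into pyruvate in the cytosol and yields ATP without oxygen. Phosphofructokinase sets much of its pace, and lactate dehydrogenase turns pyruvate into lactate and restores the NAD that the pathway uses. Endothelial cells are known to make most of their ATP this way, although they line vessels that carry oxygenated blood. Pyruvate that enters mitochondria passes the pyruvate dehydrogenase complex, which its kinases, the Pdk enzymes, switch off.

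The cells kept numbered 1569 in knockout aorta, 404 in wild-type aorta, 508 in knockout lung and 775 in wild-type lung, with 4418832, 989757, 1040626 and 1493917 UMIs in the same order. The median cell held between 1662 and 2325 UMIs, and no pair of libraries shared more than 2 cell barcodes. Endothelial-like clusters held 95.9% to 98.0% of the cells, and all 10 endothelial markers had UMIs in every library. Pou5f1, the gene of Oct4, had 1 UMI in knockout aorta, 0 in wild-type aorta, 1 in knockout lung and 2 in wild-type lung, too few to check the genotype labels, since 3 counts would amount to 0.679 to 3.03 CPM (UMIs per 1000000 UMIs of the library). Libraries differed in RNA of other cells. The 5 erythroid markers summed to 1736 CPM in knockout and 14865 CPM in wild-type aorta, and to 30578 CPM in knockout and 1208 CPM in wild-type lung. The lung epithelial markers summed to 30897 CPM in knockout and 670 CPM in wild-type lung, mostly from 1 knockout barcode that held 4.12% of that library. Of the 7 fibroblast markers, 7 had UMIs in knockout and 6 in wild-type aorta, with 1066 and 313 CPM in sum, and 1 had UMIs in knockout and 7 in wild-type lung, with 0.961 and 390 CPM. The part of these cells in the results was not tested. Ratios of the sums in endothelial-like cells alone are given below.

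The members together took 3120 CPM (3068 to 3173) in knockout aorta, 2888 CPM (2783 to 2995) in wild-type aorta, 2469 CPM (2374 to 2566) in knockout lung and 2501 CPM (2422 to 2583) in wild-type lung. That is 0.247% to 0.312% of all UMIs. A UMI counts 1 transcript whatever its length, so CPM was not divided by length when genes were set side by side. Aldoa, Gapdh, Ldha, Pkm and Gpi1 were among the 6 highest members in every library, and those 6 held 61.6%, 60.8%, 58.2% and 55.6% of all member UMIs in knockout aorta, wild-type aorta, knockout lung and wild-type lung. In every library 31 of the 32 members had a UMI, and 14 reached 50 CPM in all 4. Aldoc, the brain-type aldolase, had none anywhere.

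**Figure D1:**
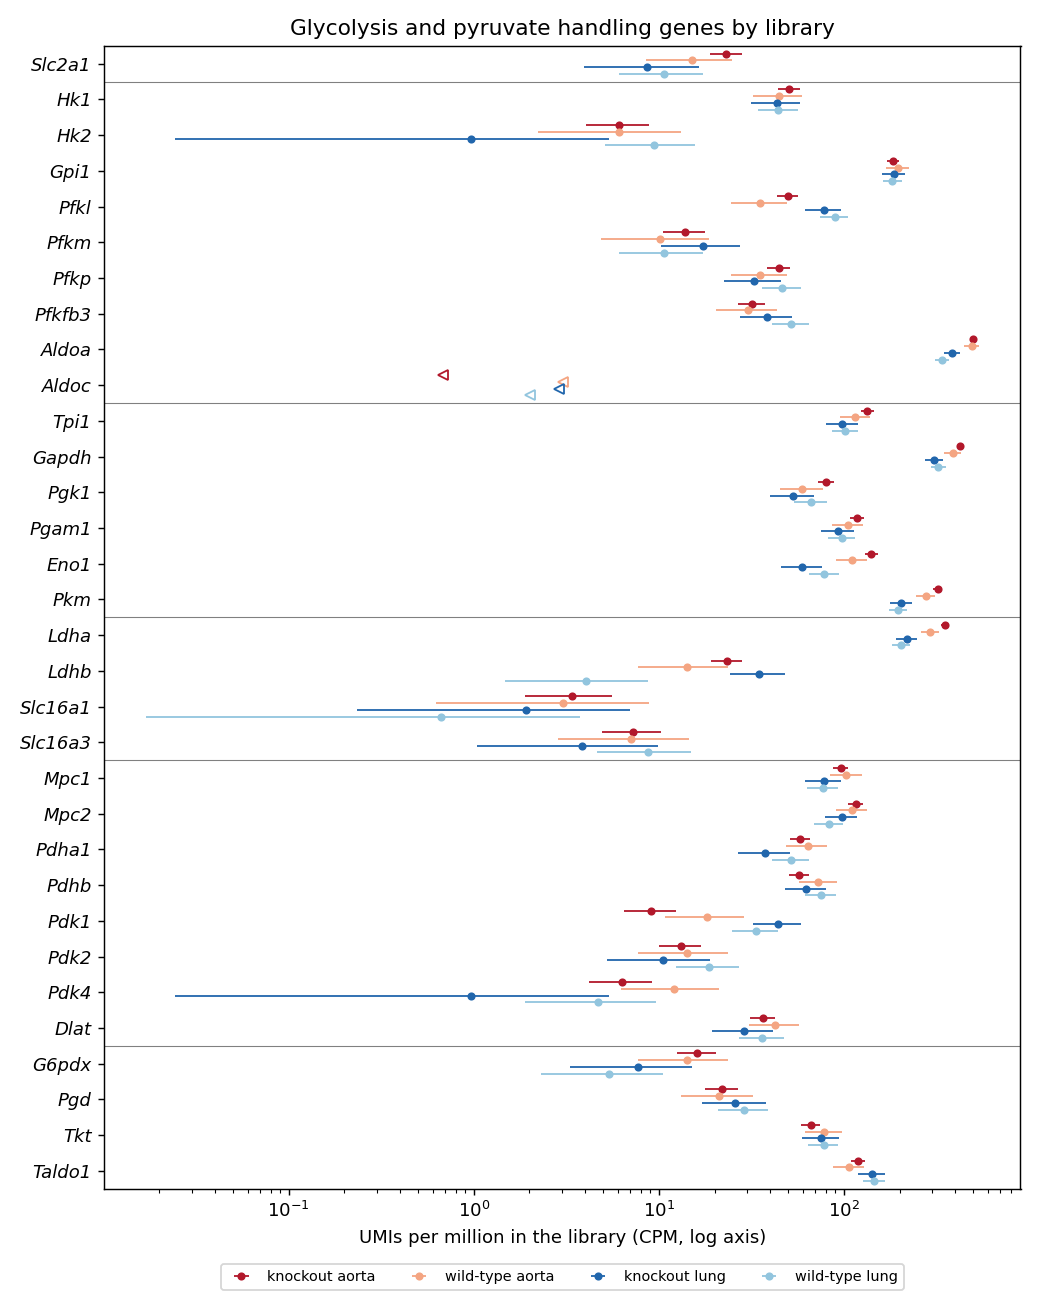
Level of each of the 32 genes in each library, in CPM of summed UMIs on a log axis, ordered by role, with knockout aorta, wild-type aorta, knockout lung and wild-type lung as separate symbols. Bars are 95% Poisson intervals and open triangles mark the limit of 3 counts where a gene had no UMI (Aldoc). Aldoa and Gapdh lie at the top in every library, and glucose uptake, Hk2 and the lactate transporters lie near the bottom.

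At the entry of the pathway, levels were low. Slc2a1 (GLUT1), the main endothelial glucose transporter, had 23.1 CPM in knockout aorta, 15.2 in wild-type aorta, 8.65 in knockout lung and 10.7 in wild-type lung. Hk1, a hexokinase that traps glucose as its phosphate, had 50.5, 44.5, 43.2 and 44.2 CPM in the same order. Hk1 thus differed little between libraries. Slc2a1 was higher in both aortic libraries than in both lung libraries. In wild type that rests on 15 aortic and 16 lung UMIs, and the interval of the ratio includes 1. Hk2, the inducible hexokinase, had 6.11 CPM in knockout aorta, 6.06 in wild-type aorta, 0.961 in knockout lung and 9.37 in wild-type lung, and much of this lay outside the endothelium: cells of other types held 13 of its 27 UMIs in knockout aorta, 4 of 6 in wild-type aorta, and fibroblast-like cells held 8 of 14 in wild-type lung.

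Of the later upper steps, Gpi1, the glucose phosphate isomerase, was nearly level, with 184 CPM in knockout aorta, 196 in wild-type aorta, 185 in knockout lung and 183 in wild-type lung. Aldoa, the aldolase that splits the sugar, was the highest member, with 498, 490, 382 and 339 CPM in the same order. The phosphofructokinase subunits, which form the committed step, differed in their tissue. Pfkl (liver type) had 49.8 CPM in knockout aorta, 35.4 in wild-type aorta, 77.8 in knockout lung and 89.0 in wild-type lung, and so was higher in both lung libraries. Pfkp (platelet type) had 44.6, 35.4, 32.7 and 46.2 CPM and Pfkm (muscle type) 13.8, 10.1, 17.3 and 10.7 CPM in the same order, with no such split. Pfkfb3, which makes the activator of phosphofructokinase, had 31.7 CPM in knockout aorta, 30.3 in wild-type aorta, 38.4 in knockout lung and 51.5 in wild-type lung.

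The 6 genes of lower glycolysis summed to 1219 CPM in knockout aorta, 1053 in wild-type aorta, 814 in knockout lung and 864 in wild-type lung. Gapdh, the glyceraldehyde phosphate dehydrogenase, had 426, 386, 307 and 324 CPM in the same order. Pkm, pyruvate kinase, had 321, 277, 204 and 196 CPM. Both were higher in each aortic library than in each lung library. Eno1, an enolase, had 141 CPM in knockout aorta, 110 in wild-type aorta, 59.6 in knockout lung and 78.3 in wild-type lung. Pgk1, a phosphoglycerate kinase, had 80.1, 59.6, 52.9 and 66.3 CPM in the same order, so that it was lower in wild-type aorta than in wild-type lung. Tpi1 (triose phosphate isomerase) ranged from 98.0 to 134 CPM and Pgam1 (phosphoglycerate mutase) from 93.2 to 118 CPM over the 4 libraries.

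Ldha, the dehydrogenase subunit that favours lactate, was the dominant lactate gene, with 351 CPM in knockout aorta, 292 in wild-type aorta, 218 in knockout lung and 203 in wild-type lung. Its partner Ldhb had 23.3, 14.1, 34.6 and 4.02 CPM in the same order. The knockout lung value of Ldhb came from 1 barcode: it held 35 of 36 UMIs and was the barcode with 28398 UMIs of Scgb1a1, a club cell gene. The lactate transporters Slc16a1 (MCT1) and Slc16a3 (MCT4) did not pass 8.70 CPM in any library.

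Among the genes of mitochondrial pyruvate, the carrier subunits Mpc1 and Mpc2 had 77.0 to 103 and 83.0 to 116 CPM over the 4 libraries. Pdha1, Pdhb and Dlat, subunits of the pyruvate dehydrogenase complex, lay between 28.8 and 75.0 CPM. Of the kinases that switch the complex off, Pdk1 had the highest level in lung, with 9.05 CPM in knockout aorta, 18.2 in wild-type aorta, 44.2 in knockout lung and 33.5 in wild-type lung. Pdk2 had 13.1, 14.1, 10.6 and 18.7 CPM and Pdk4 had 6.34, 12.1, 0.961 and 4.69 CPM in the same order. In the pentose phosphate branch, Taldo1 (transaldolase) had 119, 106, 141 and 145 CPM and Tkt (transketolase) 66.1, 77.8, 75.0 and 77.6 CPM, while the oxidative enzymes G6pdx and Pgd stayed under 30 CPM.

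Start regions of Pfkl, Pfkp and Ldha are shown because each of these genes differed between tissues or between vessel classes, as described below. The windows run from 250 bases before to 50 bases after the annotated start (RefSeq, GRCm38.p6), 5′ to 3′ on the gene's strand, and capitals mark the letters ACGTG or GCGTG on either strand (CACGT or CACGC when read on the other), the 5-base core of the hypoxia response element. Pfkl is at chr10:77986947-78010083 on the minus strand and its window at chr10:78009758-78010057. Pfkp is at chr13:6579768-6648777 on the minus strand and its window at chr13:6648722-6649021. Ldha is at chr7:46841475-46855627 on the plus strand and its window at chr7:46845554-46845853. Gene positions are those of GENCODE M21.
Pfkl: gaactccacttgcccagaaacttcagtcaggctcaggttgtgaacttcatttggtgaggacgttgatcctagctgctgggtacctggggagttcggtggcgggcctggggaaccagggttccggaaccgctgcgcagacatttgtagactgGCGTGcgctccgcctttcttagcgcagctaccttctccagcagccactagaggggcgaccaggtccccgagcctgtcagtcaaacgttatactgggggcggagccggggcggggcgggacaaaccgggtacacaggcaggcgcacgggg
Pfkp: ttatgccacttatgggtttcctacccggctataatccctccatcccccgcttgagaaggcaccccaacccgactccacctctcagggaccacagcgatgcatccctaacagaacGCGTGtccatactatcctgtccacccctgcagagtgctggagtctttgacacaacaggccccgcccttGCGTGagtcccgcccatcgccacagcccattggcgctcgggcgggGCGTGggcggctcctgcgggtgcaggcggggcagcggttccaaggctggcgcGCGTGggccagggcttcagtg
Ldha: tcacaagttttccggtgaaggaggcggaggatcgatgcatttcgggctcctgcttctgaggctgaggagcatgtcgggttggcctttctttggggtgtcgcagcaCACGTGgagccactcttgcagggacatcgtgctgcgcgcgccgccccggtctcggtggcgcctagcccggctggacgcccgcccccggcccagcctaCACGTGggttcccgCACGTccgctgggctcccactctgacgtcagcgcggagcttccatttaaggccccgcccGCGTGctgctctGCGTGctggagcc
The Ldha window held 7 matches, the Pfkp window 4 and the Pfkl window 1, counting both strands, so that CACGTG counts on each strand. At least 1 match was present in 37 of 48 windows of the members (77.1%), against 14380 of 32851 windows of all annotated genes (43.8%). The members' windows were also richer in G and C, with a median of 61.2% against 52.7%. A match is a description of these letters, not a site or a cause.

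In aorta, knockout cells had somewhat more lower glycolysis and lactate RNA than wild-type cells and somewhat less RNA of mitochondrial pyruvate genes. The ratio of knockout over wild type was 1.16 (1.08 to 1.24) for the sum of lower glycolysis, 1.22 (1.08 to 1.38) for lactate genes and 0.897 (0.807 to 0.999) for mitochondrial pyruvate genes. Upper glycolysis stood at 1.04 and the pentose phosphate branch at 1.02, both with intervals that include 1. In endothelial-like cells alone these ratios were 1.14 for lower glycolysis, 1.18 for lactate genes and 0.876 for mitochondrial pyruvate genes. Over all members the ratio was 1.08 (1.04 to 1.13), and in endothelial-like cells alone it was 1.06 (1.02 to 1.11), with 3076 CPM in knockout and 2899 CPM in wild type.

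Single members were counted where they averaged at least 50 CPM and had at least 30 UMIs over both libraries, and were called past the fold at 25% above wild type or 20% below it. In aorta 15 members met this floor and 17 did not. Their median log2 ratio was 0.14, against 0.04 over all 2992 genes at the floor, and 10 lay above 0 and 5 below. Past the fold, 2 members were higher in knockout, where 12.8% of all genes were, and 1 was lower, where 9.56% of all genes were, so the members' shares lay near the background. The higher ones were Pgk1, at 80.1 CPM in knockout and 59.6 CPM in wild type, a ratio of 1.34 (1.02 to 1.80), and Eno1, at 141 and 110 CPM, a ratio of 1.28 (1.04 to 1.58). The lower one was Pdhb, the beta subunit of pyruvate dehydrogenase, at 57.0 CPM in knockout and 72.7 CPM in wild type, a ratio of 0.784 (0.601 to 1.03). Ldha at 1.20 (1.06 to 1.37) and Pkm at 1.16 (1.02 to 1.32) were under the fold with intervals above 1, while Gapdh, Aldoa and Gpi1 stood at 1.103, 1.02 and 0.940. Pgk1 lies at chrX:106187100-106203699 and Eno1 at chr4:150236721-150248879, both on the plus strand. Over the last 300 bases of their transcripts, where a 3′ kit would read, 46.5% of the 50-base stretches of Pgk1 and 50.3% of those of Eno1 also occur in another annotated gene, so their UMIs may be incompletely counted. The labels do not say which transcript end was read.

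**Figure D2:**
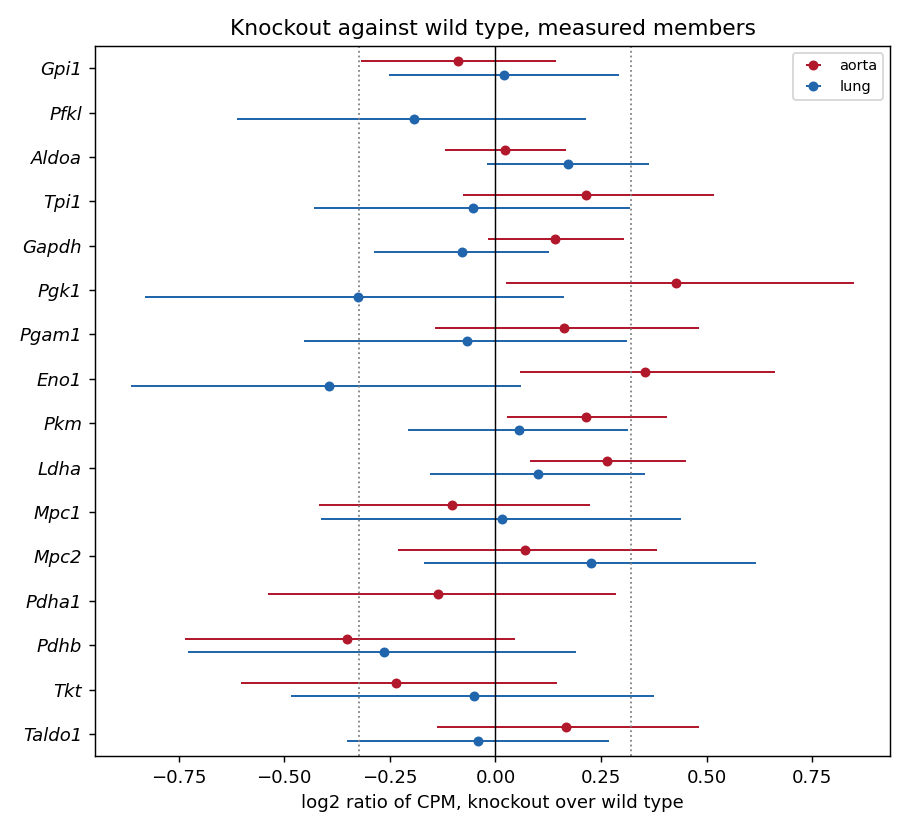
Log2 ratio of knockout over wild type for each member at the floor of its comparison, aorta in red and lung in blue, with 95% counting intervals. Dotted lines mark 25% above and 20% below wild type. Most aortic values lie between 0 and 0.43 and most lung values below 0, and Pgk1 and Eno1 point to opposite sides in the 2 tissues.

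The aortic difference was smaller cluster by cluster. Cells had been clustered with both genotypes together on genes that included no member, and 9 endothelial-like clusters held at least 20 cells of each genotype. The ratio of the summed members ranged from 0.908 to 1.14 over these clusters, with 5 above 1, 4 below 1 and no interval that left out 1. Ldha was higher in knockout in 8 of the 9 clusters and Eno1 in 7, but Gapdh in only 3. Pfkl, which was under the floor in aorta as a whole at 49.8 CPM in knockout and 35.4 CPM in wild type (1.41, 0.982 to 2.07), was higher in knockout in 9 of 9, from few UMIs in each. These clusters share 1 library per genotype and are not replicates. With the 9 clusters weighted alike, the log2 ratio of the sum was 0.01, against 0.11 for all cells.

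Part of the aortic knockout library was a cluster that wild type nearly lacked. It had 155 knockout and 8 wild-type cells and was led by Serpina3n, Lum, Dcn, Lcn2 and Col8a1, of which Lum and Dcn are also on the fibroblast list. Within the knockout library, Pgk1 had 112 CPM in this cluster, against 68.4 CPM in the other blood endothelial-like cells, and Gapdh 501 against 399 CPM. Tkt had 88.5 CPM there, against 57.8 CPM in the others, and Pfkl 28.7 against 56.5 CPM. Thus Pgk1, Gapdh and Tkt stood higher and Pfkl stood lower in that cluster of the knockout library, with Gapdh under 1.5-fold. Of 15 members at the floor, none was past 1.5-fold higher or lower than in those other cells in both libraries. Wild type had only 8 cells there, and the share of all genes was not computed. Without this cluster the aortic Pgk1 ratio was no longer past the fold. A further 10 knockout cells, led by the cell cycle genes Ccnb2, Cenpa and Cdc20, had a member sum of 4539 CPM.

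Pdk1 in aorta (40 knockout and 18 wild-type UMIs, under the floor) had 9.05 CPM in knockout and 18.2 CPM in wild type, a ratio of 0.498 (0.279 to 0.922). Of the wild-type UMIs, 7 of 18 were in capillary-like cells, which numbered 105 of 1569 cells in knockout and 60 of 404 in wild type. In the other blood endothelial-like cells Pdk1 had 8.88 CPM in knockout and 12.6 CPM in wild type, and it was higher in knockout in 6 of the 9 clusters. These cluster values rest on few UMIs.

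In lung, the summed members differed little between genotypes. They summed to 0.987 (0.938 to 1.04) of wild type in knockout, and in endothelial-like cells alone to 1.04 (0.989 to 1.099), with 2533 CPM in knockout and 2431 CPM in wild type. Lactate genes stood at 1.19 (1.01 to 1.41), which the Ldhb-rich barcode carried: without it they stood at 1.02 (0.853 to 1.21). Of 15 members at the floor, 6 lay above and 9 below 0, with a median log2 ratio of -0.05 against -0.07 over all 3255 genes. None was past the fold higher, where 7.5% of all genes were, and 2 were past it lower, where 14.3% of all genes were. These 2 were Eno1, at 59.6 CPM in knockout and 78.3 CPM in wild type (0.761, 0.550 to 1.04), and Pgk1, at 52.9 and 66.3 CPM (0.798, 0.563 to 1.12), both with intervals that include 1. In endothelial-like cells alone Eno1 had 62.2 CPM in knockout and 73.4 CPM in wild type (0.847), and the wild-type cells of other types held it at 169 CPM. Aldoa at 1.13 (0.986 to 1.29) and Mpc2 at 1.17 were the highest ratios at the floor. Over 7 lung clusters the ratio of the sum ranged from 0.802 to 1.29, 4 above and 3 below 1. The interval left out 1 in a single cluster, led by Slc6a6, Cxcl12 and H2-Eb1, with 2588 CPM in knockout and 1999 CPM in wild type.

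Between tissues the members differed more than between genotypes. Aorta carried more RNA of lower glycolysis and lactate genes than lung, and less of Pfkl and Pdk1, in both genotypes. The lung excess of these 2 genes was not shared by all lung classes described below. Lung aerocyte-like and lymphatic-like cells had less Pfkl than either aortic library, from few UMIs. Most lung UMIs of Pdk1 were in general capillary-like cells. The ratio of aorta over lung for the sum of all members was 1.26 (1.21 to 1.32) in knockout and 1.15 (1.099 to 1.21) in wild type. Lower glycolysis stood at 1.498 (1.39 to 1.61) in knockout and 1.22 (1.12 to 1.32) in wild type, and lactate genes at 1.49 and 1.46. In endothelial-like cells alone the sum of all members stood at 1.21 (1.16 to 1.27) in knockout and 1.19 (1.13 to 1.254) in wild type, lower glycolysis at 1.41 and 1.245, and lactate genes at 1.69 and 1.56. The pentose phosphate branch stood at 0.893 in knockout and 0.853 in wild type, with intervals that include 1. These 2 comparisons use different libraries, but each shares its libraries with the genotype comparisons above.

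With the floor as before and a fold of 1.5, 15 members were counted in knockout, with a median log2 ratio of 0.34 against 0.01 over all 3180 genes. Past the fold, 4 were higher in aorta, where 18.5% of all genes were, and 1 was lower, where 22% of all genes were. In wild type 16 members were counted, with a median of 0.22 against -0.09 over all 3208 genes. None was past the fold higher, where 14% of all genes were, and 1 was lower, where 24.9% of all genes were. Both wild-type shares of the members thus lay below the background. Pfkl was the lower member in both, at 0.640 (0.494 to 0.836) in knockout and 0.397 (0.266 to 0.580) in wild type; without the Serpina3n cluster the knockout ratio was no longer past the fold. The higher members in knockout were Eno1 at 2.36 (1.82 to 3.12), Ldha at 1.61 (1.40 to 1.86), Pkm at 1.58 (1.36 to 1.83) and Pgk1 at 1.52 (1.14 to 2.05). In wild type Eno1 stood at 1.41 (1.07 to 1.84), Ldha at 1.43 (1.22 to 1.69), Pkm at 1.41 (1.19 to 1.67) and Aldoa at 1.44 (1.27 to 1.64), just under the fold. Whether the tissue ratios differ between the genotypes was not tested.

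**Figure D3:**
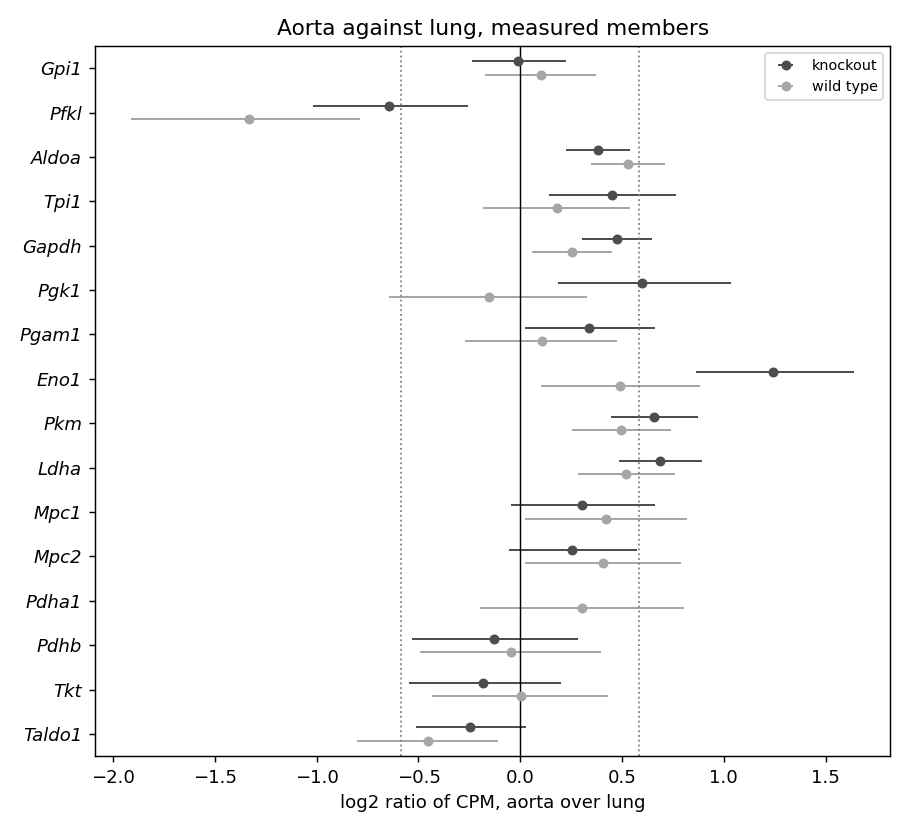
Log2 ratio of aorta over lung for each member at the floor, knockout in dark and wild type in light symbols, with 95% counting intervals. Dotted lines mark 1.5-fold. Pfkl lies left of the lower line in both genotypes, and Eno1, Ldha and Pkm lie to the right of 0 in both.

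Of the members under the floor, Pdk1 stood at 0.205 (0.131 to 0.320) of lung in knockout aorta and at 0.543 (0.298 to 0.948) in wild-type aorta. Slc2a1 stood at 2.67 (1.35 to 6.003) in knockout, from 102 aortic and 9 lung UMIs, and at 1.42 (0.652 to 3.06) in wild type. Pfkfb3 stood at 0.824 (0.576 to 1.20) in knockout and 0.588 (0.372 to 0.907) in wild type. For each of these 2 the interval left out 1 in a single genotype. Taldo1, which was at the floor, stood at 0.843 (0.701 to 1.02) in knockout and 0.730 (0.573 to 0.926) in wild type.

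Of the pathway genes outside the members, Bpgm and Bsg were past 1.5-fold higher in aorta. Bpgm, which makes the bisphosphoglycerate that lowers oxygen affinity in red cells, had 199 CPM in knockout aorta, against 52.9 CPM in knockout lung (3.77, 2.87 to 5.05), and 258 CPM in wild-type aorta, against 42.2 CPM in wild-type lung (6.11, 4.62 to 8.18). It was the only one of 33 further glycolysis genes at the floor between tissues, and in aorta it stood at 0.774 (0.672 to 0.893) in knockout relative to wild type. Erythroid-like cells held only 1 knockout and 4 wild-type aortic UMIs of Bpgm, while the endothelial-like cluster led by Thbs1 and Ctgf had 412 CPM in knockout and 492 CPM in wild type. In knockout lung, 39 of its 55 UMIs were in the cluster led by Scgb1a1 and Lyz2, and in endothelial-like cells alone the ratio of aorta over lung was 11.97 (7.33 to 21.0) in knockout and 5.98 (4.51 to 8.02) in wild type. Bsg (basigin), the chaperone of the lactate transporters, had 685 CPM in knockout aorta, against 323 CPM in knockout lung, and 642 CPM in wild-type aorta, against 308 CPM in wild-type lung. Of 17 citrate cycle genes, 11 were at the floor between tissues in knockout and 10 in wild type. None was higher in aorta, and 0 and 1 were lower in the same order. These shares lay below those of all genes, of which 18.5% in knockout and 14% in wild type were higher, and 22% and 24.9% lower.

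Epas1 and Hilpda were far lower in aorta. Epas1, a regulator gene that encodes HIF-2α, had 342 CPM in knockout aorta, against 2011 CPM in knockout lung. In wild type it had 414 CPM in aorta, against 1959 CPM in lung. Hilpda, a lipid droplet gene induced by hypoxia, had 28.7 CPM in knockout aorta, against 1199 CPM in knockout lung, and 20.2 CPM in wild-type aorta, against 937 CPM in wild-type lung. Within lung, the venous-like cells described below had less Hilpda than their library, at 237 CPM in knockout and 203 CPM in wild type. The lymphatic-like cells of lung had still less Hilpda, at 44.9 CPM in knockout and 84.6 CPM in wild type. Their Epas1 was lower than in either aortic library, at 67.4 CPM in knockout and 116 CPM in wild type. Whether Epas1 and Hilpda relate to the member ratios was not tested. Of 17 hypoxia targets listed in the libraries, 9 were at the floor in knockout and 8 in wild type. In each genotype 2 (Mif and Ndrg1) were higher and 3 lower in aorta. Over all genes 18.5% in knockout and 14% in wild type were higher, and 22% and 24.9% lower. Of 14 immediate early and heat shock genes that dissociation can induce, 14 were at the floor in knockout and 13 in wild type. Of these, 9 in knockout and 8 in wild type were lower in aorta and none was higher. The lower shares exceeded those of all genes, so this signal moved with tissue too. Its part in the tissue ratios was not tested.

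Lung vessel classes differed in which enzyme forms they carried more than in the total. Clusters were named by marker genes: general capillary-like cells (302 knockout and 475 wild-type cells), aerocyte-like cells, the capillary type of gas exchange (99 and 133), venous-like (43 and 54), arterial-like (25 and 40) and lymphatic-like cells (19 and 41). No member took part in the clustering, and the comparisons are descriptions without a test. The members summed to 2391 CPM in knockout and 2497 CPM in wild-type aerocyte-like cells, against 2475 CPM in knockout and 2308 CPM in wild-type general capillary-like cells. Venous-like cells had 3028 and 2745 CPM, arterial-like cells 2208 and 2754 CPM, and lymphatic-like cells 3032 and 2632 CPM in knockout and wild type.

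**Figure D4:**
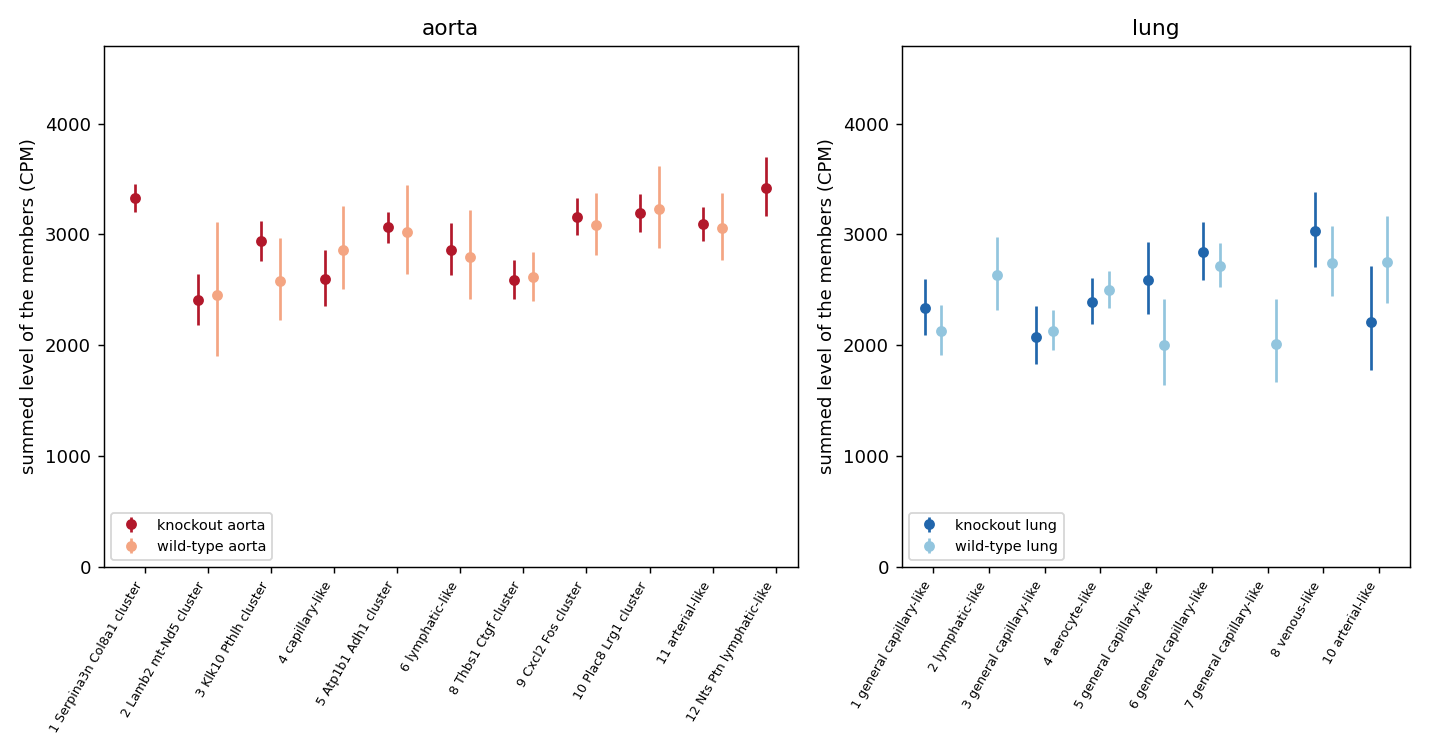
Summed CPM of the 32 members in each cluster with at least 20 cells, knockout left of wild type, with 95% Poisson intervals, for aorta and lung. The ratio of knockout over wild type ranges from 0.908 to 1.14 in aorta and from 0.802 to 1.29 in lung.

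Between aerocyte-like and general capillary-like cells the phosphofructokinase subunits stood in opposite order. Pfkp had 75.3 CPM in knockout and 95.5 CPM in wild-type aerocyte-like cells, against 18.9 CPM in knockout and 18.6 CPM in wild-type general capillary-like cells. The ratio was 3.99 (1.70 to 9.83) in knockout and 5.13 (2.70 to 10.2) in wild type. Pfkl had 18.8 CPM in knockout and 29.8 CPM in wild-type aerocyte-like cells, against 115 CPM and 125 CPM in general capillary-like cells, a ratio of 0.163 (0.0431 to 0.440) in knockout and 0.238 (0.111 to 0.457) in wild type. So the class that is low in one subunit was high in the other, in both libraries. None of the last 300 bases of either gene was shared with another gene at 50 bases.

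Pgam1 and Gpi1 were also higher in aerocyte-like cells. Pgam1 had 169 CPM in knockout and 164 CPM in wild-type aerocyte-like cells, against 79.3 and 84.3 CPM in general capillary-like cells, with ratios of 2.14 (1.33 to 3.41) and 1.95 (1.34 to 2.82). Gpi1 had 287 and 260 CPM, against 151 and 157 CPM, with ratios of 1.90 (1.34 to 2.68) and 1.65 (1.24 to 2.18). Of 16 members at the floor, these 3 (Pfkp, Pgam1 and Gpi1) were past 1.5-fold higher in both libraries, where 14.3% of all genes were, and 1 (Pfkl) was past it lower, where 13.7% of all genes were; the members' shares lay near the background. Gapdh stood at 0.677 in knockout and 0.661 in wild type and Ldha at 0.777 and 0.449, lower in aerocyte-like cells of both libraries. These 2 ratios move with cluster 6, described below: against the general capillary-like cells outside it, Gapdh stood at 0.841 (0.580 to 1.20) and 0.963 (0.708 to 1.30) and Ldha at 0.936 (0.598 to 1.44) and 0.575 (0.374 to 0.865), while Pfkp, Pgam1, Gpi1 and Pfkl stayed past 1.5-fold in both libraries. Part of the 3′ sequence of Pgam1 (39.3% of 50-base stretches), Gpi1 (18.5%), Gapdh (50.3%) and Ldha (14.2%) also occurs in another annotated gene.

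A pair of regulators under the floor followed Pfkl. Pdk1 had 4.71 CPM in knockout and 11.9 CPM in wild-type aerocyte-like cells, against 71.8 and 48.3 CPM in general capillary-like cells, which held 38 of 46 knockout and 39 of 50 wild-type lung UMIs of the gene. Pfkfb3 had 18.8 CPM in knockout and 11.9 CPM in wild-type aerocyte-like cells, against 52.9 and 75.6 CPM in general capillary-like cells. Pdk1 lies at chr2:71873224-71903858 on the plus strand.

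**Figure D5:**
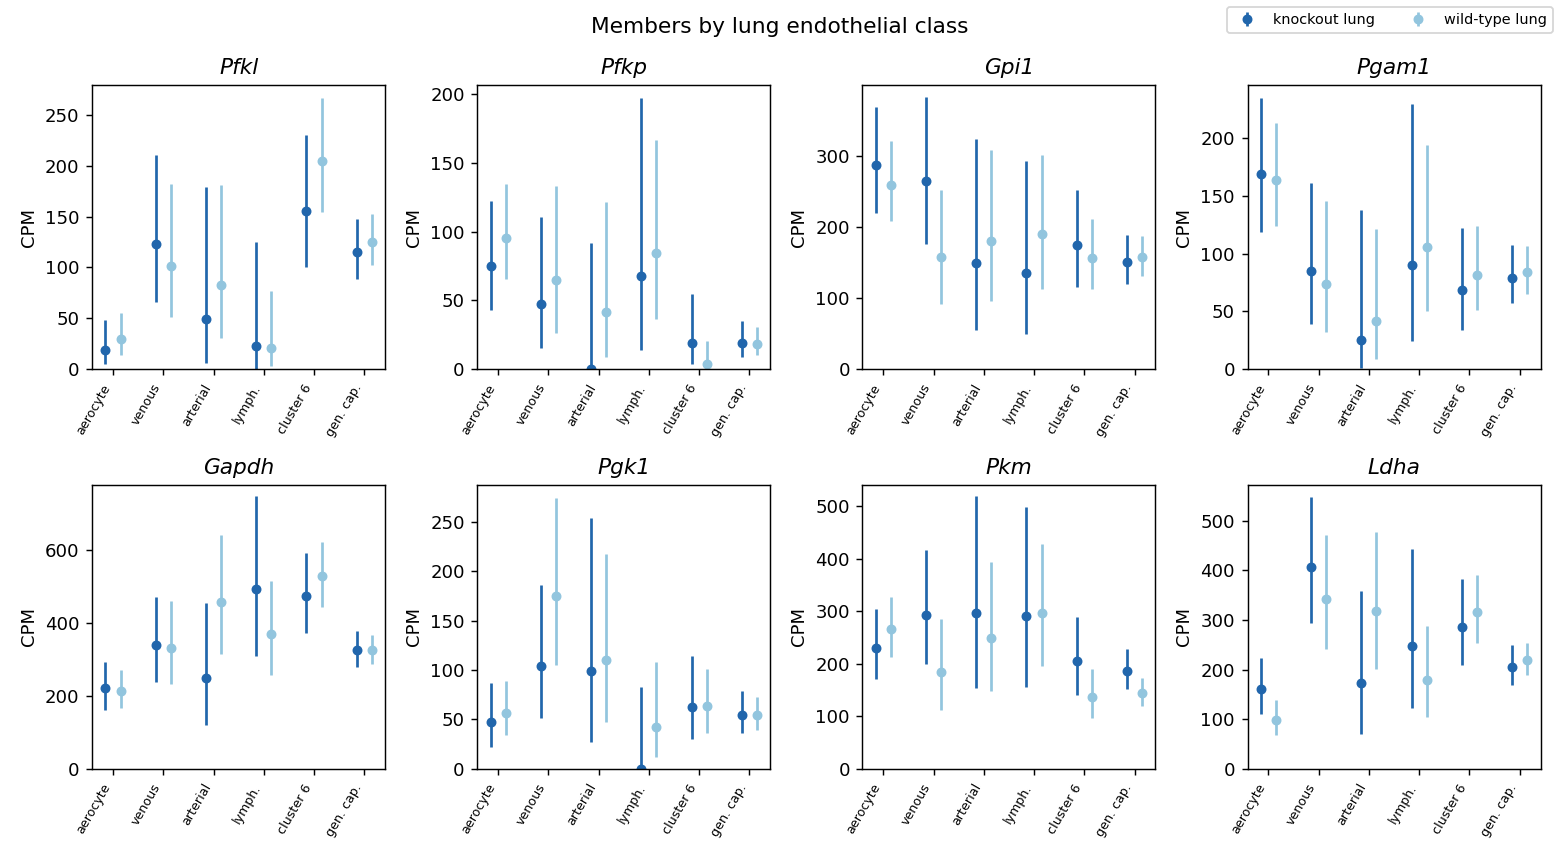
CPM of 8 members in the lung endothelial-like classes, knockout left of wild type, with 95% Poisson intervals; general capillary-like cells (gen. cap.) include cluster 6, which is also drawn alone. Pfkp and Pfkl run in opposite directions between aerocyte-like and general capillary-like cells, and cluster 6 is highest for Pfkl and Gapdh.

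Venous-like cells carried more Ldha and Tkt than general capillary-like cells. Ldha had 407 CPM in knockout and 342 CPM in wild-type venous-like cells, against 206 and 219 CPM in general capillary-like cells, with ratios of 1.98 (1.36 to 2.84) and 1.56 (1.06 to 2.23). Pgk1 had 104 and 176 CPM, against 54.8 and 54.5 CPM, with ratios of 1.90 (0.857 to 3.92) and 3.22 (1.78 to 5.63), but single cells weighed heavily. In knockout 1 cell held 4 of 11 and in wild type 1 cell held 13 of 19 venous-like Pgk1 UMIs, and without the highest cell the ratios were 1.24 (0.458 to 2.89) and 1.13 (0.394 to 2.66). Tkt had 151 CPM in knockout and 157 CPM in wild-type venous-like cells, against 81.2 and 60.7 CPM, with ratios of 1.86 (0.980 to 3.38) and 2.59 (1.40 to 4.57). These 3 of 17 members were past 1.5-fold higher in both libraries, where 6.49% of all genes were, and none was past it lower, where 8.9% of all genes were. With the highest venous-like cell of each gene left out, Tkt alone of the 3 stayed past it in both libraries, at 1.68 and 2.19, while Ldha stood at 1.87 in knockout and 1.45 (0.958 to 2.14) in wild type.

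Within the general capillary-like cells, cluster 6 stood apart. It had 82 knockout and 133 wild-type cells and was led by Depp1, Atf3, Hbegf and Plat, with the immediate early gene Fos among its first 10 genes. Gapdh had 473 CPM in knockout and 528 CPM in wild-type cells of cluster 6, against 263 and 223 CPM in the other general capillary-like cells, with ratios of 1.80 (1.31 to 2.45) and 2.37 (1.84 to 3.04). Ldha had 286 and 316 CPM, against 171 CPM in both libraries, with ratios of 1.68 (1.12 to 2.49) and 1.85 (1.36 to 2.51). Pfkl had 156 and 204 CPM, against 97.6 and 85.6 CPM, with ratios of 1.59 (0.917 to 2.73) and 2.39 (1.59 to 3.62). These 3 of 17 members were past 1.5-fold higher in both libraries, where 3.62% of all genes were, and none was past it lower, where 3.44% of all genes were. With the highest cell of each gene left out, Gapdh and Ldha stayed past it and the knockout ratio of Pfkl was 1.48 (0.840 to 2.57). The sum of all members stood at 1.23 (1.09 to 1.37) in knockout and 1.29 (1.17 to 1.42) in wild type. Atf3 itself had 1108 CPM in knockout and 989 CPM in wild-type cells of the cluster; whether dissociation plays a part was not tested.

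The smaller lung classes rest on few UMIs. Arterial-like cells had 298 CPM of Pkm in knockout and 249 CPM in wild type, and 24.8 and 41.5 CPM of Pgam1. Against general capillary-like cells, 2 of 14 members (Pgk1 and Pkm) were past 1.5-fold higher in both libraries. Another 2 (Pfkl and Pgam1) were past it lower. Lymphatic-like cells had 292 and 296 CPM of Pkm. There 1 of 14 members (Pkm) was past the fold higher and 1 (Pfkl) lower. The share of all genes was not computed for either class. The phosphofructokinases of lymphatic-like cells resembled those of aerocyte-like cells. Lymphatic-like cells had 67.4 CPM of Pfkp in knockout and 84.6 CPM in wild type, and 22.5 and 21.1 CPM of Pfkl. Low Pfkl was not particular to these classes: arterial-like cells were also past 1.5-fold lower in it than general capillary-like cells in both libraries.

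In aorta, capillary-like cells (led by Rgcc, Car4 and Gpihbp1; 105 knockout and 60 wild-type cells) carried more Ldha and Slc16a1 and less Aldoa, Pgam1 and Tkt than the other blood endothelial-like cells. Ldha had 509 CPM in knockout and 500 CPM in wild-type capillary-like cells, against 352 and 289 CPM in the others, with ratios of 1.45 (1.14 to 1.81) and 1.73 (1.20 to 2.43). Aldoa had 282 and 262 CPM, against 479 and 495 CPM, with ratios of 0.588 (0.429 to 0.788) and 0.530 (0.324 to 0.822). So Ldha exceeded Aldoa in these cells, while Aldoa exceeded Ldha in the others. Pgam1 had 42.9 and 49.99 CPM, against 119 and 111 CPM, and Tkt 24.5 and 49.99 CPM, from 4 UMIs in each library, against 66.2 and 77.9 CPM. Of 15 members at the floor, these 3 (Aldoa, Pgam1 and Tkt) were past 1.5-fold lower in both libraries, where 18% of all genes were, and none was past it higher, where 15.7% of all genes were.

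Slc16a1, which carries lactate and pyruvate across the membrane, was rare, and among blood endothelial-like cells of aorta it lay mostly in capillary-like cells. Capillary-like cells held 8 of its 15 UMIs in knockout aorta and 3 of 3 in wild-type aorta, or 49.0 and 37.5 CPM. The other blood endothelial-like cells had 0.538 CPM from 2 UMIs in knockout and 0 UMIs in wild type. The ratio in knockout was 91.1, with a counting interval of 18.2 to 880. Outside the blood endothelial-like cells, 1 fibroblast-like cell of knockout aorta held 2 UMIs, in a cluster of only 25559 UMIs. The single wild-type lung UMI was also in a fibroblast-like cell. Slc16a1 lies at chr3:104638668-104658462 on the plus strand.

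Aortic lymphatic-like cells (189 knockout and 39 wild-type cells) had more Aldoa than blood endothelial-like cells, with 704 CPM in knockout and 701 CPM in wild type, against 471 and 474 CPM. The ratios of 1.49 (1.31 to 1.70) and 1.48 (1.11 to 1.95) were just under 1.5, and of 16 members at the floor none was past it higher or lower in both libraries, where 13.8% and 11.2% of all genes were. Pfkfb3 had 7.60 CPM in knockout and no UMI in wild-type lymphatic-like cells, against 35.1 and 34.3 CPM in blood endothelial-like cells. The cluster led by Thbs1 and Ctgf (143 knockout and 89 wild-type cells) had less Ldha and more Pfkfb3 than the other blood endothelial-like cells. Ldha had 216 CPM in knockout and 212 CPM in wild type there, against 372 and 338 CPM, with ratios of 0.583 (0.452 to 0.740) and 0.628 (0.444 to 0.871). Pfkfb3, which was under the floor here, had 73.2 and 62.8 CPM, against 31.5 and 25.4 CPM, with ratios of 2.32 (1.43 to 3.63) and 2.47 (1.102 to 5.40). Of 15 members at the floor, 1 (Ldha) was past 1.5-fold lower in both libraries and none was past it higher. The share of all genes was not computed for this cluster. Arterial-like cells of aorta had Eno1 at 177 CPM in knockout and 137 CPM in wild type, against 132 and 95.4 CPM in the other blood endothelial-like cells. Both ratios were under 1.5-fold, and of 15 members at the floor none was past it higher or lower in both libraries.

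The few cells outside the endothelium differed in level and in enzyme form. Smooth muscle-like cells of aorta (17 knockout and 2 wild-type cells) had a member sum of 4723 CPM in knockout and 4374 CPM in wild type, and held 29 of the 103 Ldhb UMIs of the knockout library, or 258 CPM. Fibroblast-like cells of knockout aorta (12 cells) summed to 4343 CPM, with Slc2a1 at 587 CPM from 15 UMIs, of which 1 cell held 8. In wild-type lung, 1 cell held 9 of the 13 UMIs of Slc16a3.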

How the data were processed

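Deposited tables hold UMI counts per gene and cell, whole numbers that were not normalized; Cell Ranger and the mm10 build are named per the submitters' processing notes, and neither their versions nor the gene annotation are given in the sources used here. Lung gene IDs were turned into symbols with the reference annotation, and 30934 of 31053 matched. Cells with at least 500 UMIs and at most 15% mitochondrial UMIs were kept, which left out 54, 45, 21 and 25 barcodes of knockout aorta, wild-type aorta, knockout lung and wild-type lung. Counts were summed per library, cluster or class and given as CPM with exact Poisson 95% intervals; ratios have exact conditional (Clopper-Pearson) 95% intervals, which cover counting error only. Members and gene lists were chosen with earlier results of these data known. All members were named, further genes only when past the fold with an interval that leaves out 1, at most 6 per list and comparison.

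Cells of each tissue were clustered with both genotypes together in scanpy 1.11.5 (Python 3.11.15): counts scaled to 10000, 2000 variable genes without the members and the pathway lists, 30 principal components, 15 neighbours and Leiden resolution 1. Cluster names rest on marker lists, were rebuilt here, and end in "-like". Scrublet marked 3, 3, 4 and 10 doublets in the same library order (0.19% to 1.29%), which were kept. The summary steps were run on simulated Poisson counts, the model that the intervals assume. These counts held no variation between cells, mice or libraries, so they check the computation only. In all, 12 other settings were tried, and 5 more were chosen after seeing the data. These leave out the aortic cluster led by Serpina3n, the knockout lung barcode rich in Scgb1a1, the highest cell of a class or lung cluster 6, or take step sums and further genes over endothelial-like cells alone.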

Additional observations from a re-analysis of the deposited data

Results flagged for a closer look

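Pgk1 and Eno1 lay on opposite sides of wild type in the 2 tissues. Pgk1 stood at 1.34 of wild type in knockout aorta and at 0.798 in knockout lung. Eno1 stood at 1.28 in aorta and at 0.761 in lung. With 1 library per group the difference between tissues was not tested, and both lung intervals include 1. Much of the 3′ sequence of each gene also occurs in another annotated gene, and Eno1 was called under 10 of 13 alternatives in aorta and 10 of 12 in lung. Pgk1 was called under 10 of 12 in aorta and 3 of 12 in lung.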

How the results depend on the processing

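No paired analysis was possible because each group has 1 library and the labels give no replicate numbers, and for the same reason no replicate could be left out. The direction of the summed members held under the alternatives run in aorta against lung and in knockout against wild-type aorta. In aorta the genotype log2 ratio was 0.11 over all cells and 0.0104 with clusters weighted alike; in lung it was -0.02 over all cells and 0.0596 in endothelial-like cells. For aorta against lung in wild type (0.21 over all cells) it was 0.0889 with cells thinned to 1000 UMIs, 0.34 without mitochondrial, ribosomal and haemoglobin genes in the denominator and 0.29 when centred on the median gene. That denominator moved the median over all genes to 0.04, against -0.09. In knockout (0.34 over all cells) it was 0.24 thinned and 0.42 with that denominator.

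Members past the fold higher in knockout aorta (2 as reported) numbered 0 with clusters weighted alike, 4 by mean per-cell CPM, 5 thinned, 1 without the Serpina3n cluster, 1 when centred, 1 at a floor of 100 CPM and 4 at 20 CPM; lower ones (1) numbered 0 over all barcodes, 3 thinned, 0 without the highest cell of each gene and 0 at 100 CPM. In lung, higher ones (0) numbered 1 in endothelial-like cells, by per-cell CPM, thinned and at 20 CPM. Lower ones (2) numbered 0 in endothelial-like cells, with clusters weighted alike and at 100 CPM, 1 without doublets, the highest cells or the Scgb1a1 barcode and when centred, 4 thinned and 6 at 20 CPM. Between tissues in wild type, higher ones (0) numbered 1 by per-cell CPM and thinned, 4 with the reduced denominator and 2 when centred; lower ones (1) numbered 2 by per-cell CPM and thinned, 0 at 100 CPM and 3 at 20 CPM. In knockout, higher ones (4) numbered 2 in endothelial-like cells and by per-cell CPM; lower ones (1) numbered 2 thinned and at 20 CPM, and 0 with the reduced denominator, without the Serpina3n cluster and at 100 CPM.

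In lung the genotype log2 ratio changed sign for Eno1 with clusters weighted alike (0.0666) and for Pgk1 by per-cell CPM (0.10). The causes were not tested. In aorta against lung, Eno1 and Ldha in knockout were called under 13 of 13 alternatives and Pfkl in wild type under 11 of 11, while Pgk1 in knockout was called under 6 of 12. In knockout against wild-type aorta, Pgk1 was called under 10 of 12 alternatives and Pdhb under 7 of 12. For class ratios, step sums and further genes, 133 of 140 values under the settings added after seeing the data stayed within the counting interval of the reported value, and none of those whose reported interval left out 1 changed sign. Thinning left out 148, 72, 118 and 142 cells of knockout aorta, wild-type aorta, knockout lung and wild-type lung. Depth limits the members under 50 CPM and the small classes most.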

Other observations

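Some genes of the lists beside the members also differed between genotypes. Over all genes at the floor, 12.8% were past the fold higher and 9.56% lower in knockout aorta, and 7.5% were higher and 14.3% lower in knockout lung. Against these shares, of the citrate cycle genes at the floor, 1 of 11 was past the fold higher in knockout aorta and 1 of 12 in knockout lung, and none was lower. Of the hypoxia targets, 2 of 7 were higher and 1 lower in knockout aorta, and 3 of 9 were higher and 2 lower in knockout lung. Of the dissociation and immediate early genes, 3 of 13 were lower in knockout aorta and none higher, while 2 of 14 were higher and 3 lower in knockout lung. Mif, a cytokine on the hypoxia list, had 165 CPM in knockout and 126 CPM in wild-type aorta (1.30, 1.08 to 1.59). Ddit4, a stress-induced inhibitor of mTORC1, had 87.6 CPM in knockout and 113 CPM in wild-type aorta (0.774, 0.626 to 0.964). Hilpda had 1199 CPM in knockout and 937 CPM in wild-type lung (1.28, 1.18 to 1.38).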
